A study of Mus musculus with 11 samples.

Results

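Fibroblast growth factor (FGF) receptors and the genes that FGF signaling is known to induce were examined in basal and luminal epithelial cells of terminal end buds (TEBs) and ducts of the pubertal mouse mammary gland. The 10 genes were chosen by name, as 3 receptors (Fgfr1, Fgfr2 and Fgfr3), the ligand Fgf1, 4 inhibitors (Spry1, Spry2, Spry4 and Dusp6) and 2 transcription factors of the ETS family (Etv4 and Etv5), out of 27179 genes in the count table. All 10 were found by their Entrez identifier, and all 10 passed the filter on low counts that left 17370 genes for testing. The mice were 5-week-old females of strain C57BL/6, each carrying an E-cadherin-GFP knock-in allele that guided the dissection of TEBs and ducts, so that every group shared this reporter. After removal of lineage-positive cells, CD29+CD24+ cells were sorted as basal when E-cadherin-GFP was low and as luminal when it was high. RNA from 3 replicates each of basal duct, basal TEB and luminal TEB cells and from 2 replicates of luminal duct cells was sequenced, and each replicate pooled at least 2 mice. A luminal gate of this kind holds both progenitor and mature luminal cells, which these libraries cannot separate.

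FGFs are secreted proteins that bind receptor tyrosine kinases on the cell surface. An activated receptor recruits adaptor proteins that switch on RAS, and the kinase cascade below RAS ends in the ERK kinases, which act on ETS factors in the nucleus. Etv4 and Etv5 are ETS factors whose transcription follows FGF signaling, while Sprouty proteins hold back the pathway near RAS and the phosphatase Dusp6 removes phosphate from ERK, so that the 3 Sprouty genes and Dusp6 form feedback loops. In the mammary gland, Fgfr2 in the epithelium and Fgf10 from the surrounding stroma are known for their part in the growth of the epithelial tree.

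The libraries held 27989137 to 49221436 counts, and values below are CPM, each count divided by its library's total in units of 1e+06 and by the scale factor of the trimmed mean of M-values (TMM). Summed over 6 basal markers such as Krt5 and Krt14, levels were 14390 to 17580 CPM in basal ducts and 4952 to 7832 CPM in basal TEBs. In luminal libraries they were 11.9 to 217 CPM. Summed over 8 luminal markers such as Krt8 and Krt18, they were 329 to 568 CPM in basal and 12270 to 19000 CPM in luminal libraries, so each sorted group carried the markers of its label. Mitochondrial genes took 4.34 to 17.8% of counts in 9 libraries, 37.5% in basal TEB replicate 1 and 28.5% in luminal duct replicate 3. Fibroblast markers (8 genes, all with counts in each group) summed to 442 to 902 CPM in basal libraries and to 6.35 to 55.0 CPM in luminal libraries other than luminal duct replicate 3, which had 259 CPM. Endothelial markers were at 175 CPM in basal duct replicate 2 and at no more than 35.9 CPM elsewhere. In bulk RNA, fewer cells that express a gene and less RNA in each cell cannot be told apart.

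Basal and luminal cells differed in nearly the whole set, in ducts and in TEBs alike. In ducts 8 of the 10 genes passed the test, 7 of them higher in basal cells and 1, Fgfr2, lower. In TEBs 9 of 10 passed, 8 higher in basal cells and again Fgfr2 lower. For comparison, over all 17370 genes 22.3% passed in ducts (12.6% higher and 9.71% lower in basal cells), and 25.1% passed in TEBs (13.2% higher and 11.8% lower). The median log2 fold change of the 10 genes, basal over luminal, was 1.59 in ducts against 0.08 for all genes, and 2.37 in TEBs against 0.04. The 2 groups did not overlap in any library for 9 of 10 genes in ducts and for 9 of 10 in TEBs, where 46.0% and 49.8% of all genes did not overlap. The 10 genes and the other gene lists were chosen with earlier results of these data known. These shares and medians therefore describe the set and do not test it. Between TEBs and ducts of the same lineage the genes were much closer, and the only one past the threshold was Fgfr1 in luminal cells. The 2 sorted lineages also differed in fibroblast markers, 8 genes that summed to 442 to 902 CPM in basal and to 6.35 to 259 CPM in luminal libraries. Of these genes, 2 (Dcn and Fbln1) passed as higher in basal cells, in ducts and in TEBs. The median log2 fold change of the 8, basal over luminal, was 1.267 in ducts and 2.415 in TEBs. The part of these markers in the basal excess was not tested. Adjusted p-values are those of edgeR (quasi-likelihood, Benjamini-Hochberg over the 17370 genes), with 0.05 as the threshold, and errors on log2 fold changes are standard errors. Leaving out any 1 library gave 7 to 8 genes in ducts and 9 to 10 in TEBs.

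**Figure D1:**
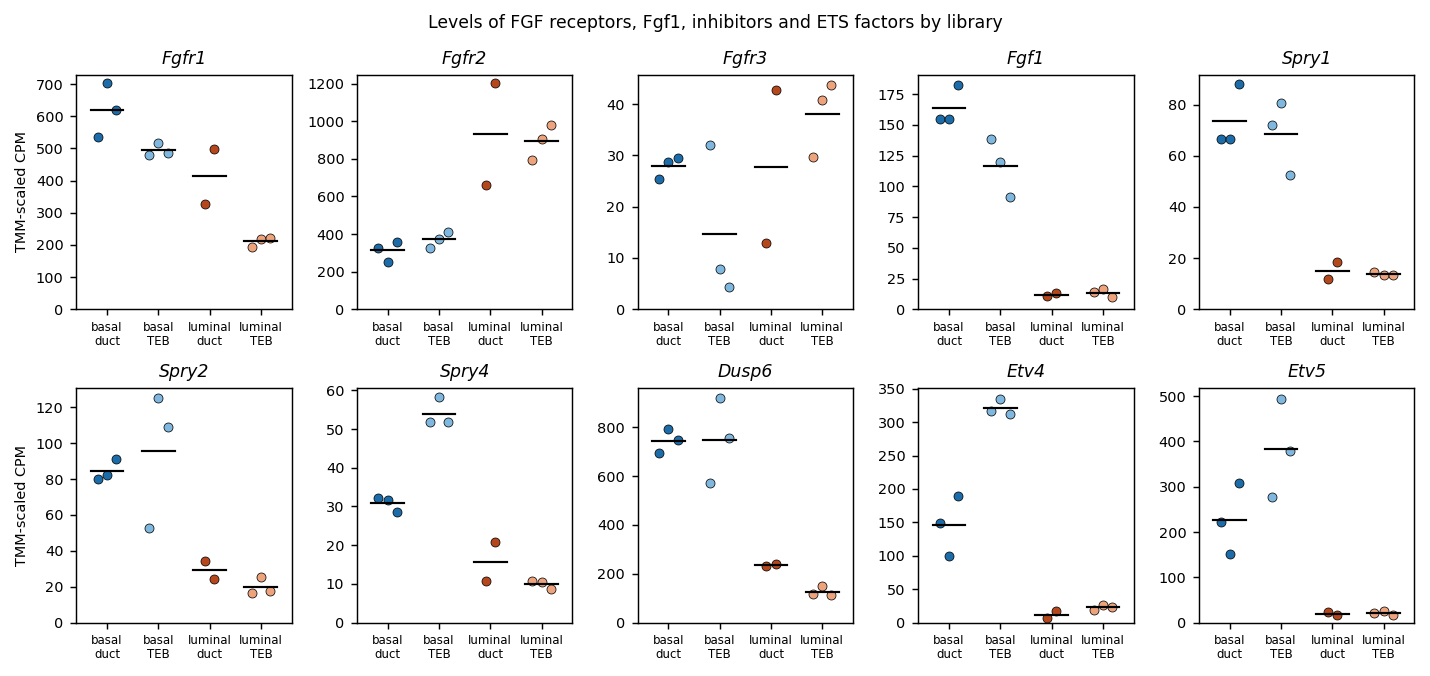
Level of each of the 10 genes in the 11 libraries, in TMM-scaled CPM on linear axes that start at 0. Points are libraries (3 in each group, 2 for luminal duct) and lines are group means. Fgf1, Spry1, Spry2, Spry4, Dusp6, Etv4 and Etv5 are higher in each of the 6 basal libraries than in any of the 5 luminal libraries, and Fgfr2 is lower.

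Among the receptors, Fgfr2 (Entrez 14183, chr7:130162451-130266808, GRCm38) was the luminal one. Its level was 328, 253 and 358 CPM in basal ducts and 328, 373 and 412 CPM in basal TEBs, against 663 and 1201 CPM in luminal ducts and 795, 904 and 982 CPM in luminal TEBs. Each luminal library was above each basal library. The difference was -1.58 ± 0.26 on the log2 scale in ducts (2.98-fold lower in basal cells, adjusted p = 0.000868) and -1.27 ± 0.24 in TEBs (2.41-fold, adjusted p = 0.00183). TEB and duct values overlapped within each lineage, with log2 differences of 0.25 ± 0.23 in basal cells (adjusted p = 0.683) and -0.06 ± 0.26 in luminal cells (adjusted p = 0.946), and the 95% interval of the luminal difference ran from -0.63 to 0.51.

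Fgfr1 (Entrez 14182, chr8:25518759-25575718), a receptor also made by mesenchymal cells, ran the other way. It stood at 537, 704 and 621 CPM in basal ducts and at 479.5, 518 and 486 CPM in basal TEBs. Luminal ducts had 327 and 499 CPM, and luminal TEBs had the lowest levels, at 193, 219 and 223 CPM. In TEBs the basal excess was 2.34-fold (log2 1.23 ± 0.19, adjusted p = 0.000509), and scaled by library size alone, without TMM, it was 0.82 with an adjusted p of 0.0568. In ducts the log2 difference of 0.59 ± 0.22 did not pass (adjusted p = 0.0719), while DESeq2 (0.57, adjusted p = 0.0404) and limma voom (0.63, adjusted p = 0.0158) called it. Without luminal duct replicate 3 the edgeR value was 0.93 with an adjusted p of 0.0139, and without replicate 1 it was 0.31 with an adjusted p of 0.343.

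Within luminal cells, Fgfr1 was lower in TEBs than in ducts by 1.95-fold, and it was the single one of the 10 genes that passed in that comparison (log2 -0.97 ± 0.21, adjusted p = 0.0468), where 1.41% of all genes passed. It was lower in each of 3 TEB libraries than in either duct library. The call was close to the threshold. It was lost when any 1 of 7 libraries was left out (basal duct replicate 1 or 3, basal TEB replicate 3, luminal duct replicate 3 or any luminal TEB replicate), with adjusted p from 0.0649 to 0.212, and without luminal duct replicate 3 the log2 difference was -0.63. Scaled by library size alone it was -0.55 (adjusted p = 0.395), a scaling that moved the median of all genes in this comparison from 0.04 to 0.42, and fitted on luminal libraries alone it had an adjusted p of 0.0584. That library had the higher Fgfr1 level of the luminal duct pair, and it also held 259 CPM of fibroblast markers against 6.35 CPM in replicate 1 and 217 CPM of basal markers against 81.8 CPM. Basal markers were lower in the same comparison, 5 of 6 past the threshold, with 81.8 to 217 CPM in luminal ducts and 11.9 to 24.5 CPM in luminal TEBs. The part of either marker list in the result was not tested. In basal cells Fgfr1 was lower in all 3 TEB than in all 3 duct libraries, but by 1.26-fold only (log2 -0.33 ± 0.19, adjusted p = 0.453).

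Fgfr3 (Entrez 14184, chr5:33721724-33737068) was far less abundant and more scattered. Basal ducts were even, at 25.4, 28.8 and 29.5 CPM, while basal TEBs had 31.9 CPM in replicate 1 against 7.83 and 4.29 CPM in replicates 2 and 3. Luminal ducts had 12.9 and 42.7 CPM, and luminal TEBs 29.6, 40.9 and 43.8 CPM. The high basal TEB value and the high luminal duct value came from the pair of libraries with the largest mitochondrial shares. In the edgeR fit none of the 4 comparisons passed for Fgfr3, with adjusted p from 0.136 for basal against luminal cells in TEBs (log2 -1.39 ± 0.63) to 1 for the same comparison in ducts. With all libraries kept, the difference in TEBs passed by limma voom (log2 -2.27, adjusted p = 0.00434) and with scaling by library size alone (-2.07, adjusted p = 0.0140). With both of those high mitochondrial libraries left out, a choice made after seeing the data, the log2 difference was -2.66 between basal and luminal cells of TEBs (adjusted p = 0.000162) and -2.19 between basal TEB and basal duct (adjusted p = 0.0115), and leaving out basal TEB replicate 1 alone gave -2.65 in TEBs (adjusted p = 0.00248). Whether the mitochondrial share bears on the Fgfr3 level was not tested.

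The receptors were then compared with each other within each library, per length of counted exons, which does not depend on how libraries are scaled to each other. Fgfr1 made up 64.0 ± 5.84% (SD, n = 3) of the summed RPKM (CPM per kilobase of counted exon) of Fgfr1, Fgfr2, Fgfr3 and Fgfr4 in basal ducts, 56.4 ± 1.92% (n = 3) in basal TEBs, 31.9 ± 2.88% (n = 2) in luminal ducts and 19.4 ± 0.623% (n = 3) in luminal TEBs. Fgfr2 made up 30.4 ± 5.8%, 39.6 ± 3.22%, 65.9 ± 1.91% and 76.6 ± 0.494% in the same order. The ratio of Fgfr1 to Fgfr2 was 1.75, 2.98 and 1.85 in basal ducts and 1.56, 1.48 and 1.26 in basal TEBs. It was 0.526 and 0.444 in luminal ducts and 0.259, 0.258 and 0.242 in luminal TEBs. The 4 groups therefore lay in 1 order with no overlap, from basal duct through basal TEB and luminal duct to luminal TEB. On the log2 scale the TEB ratio was lower than the duct ratio by 0.575 in basal cells and by 0.932 in luminal cells, and the basal ratio was higher than the luminal ratio by 2.14 in ducts and by 2.50 in TEBs. Exact two-sided permutation tests of these 4 differences each gave p = 0.1 (0.1 after Benjamini-Hochberg adjustment), the smallest p that 3 against 3 or 3 against 2 libraries allow, so none could pass a threshold of 0.05.

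**Figure D2:**
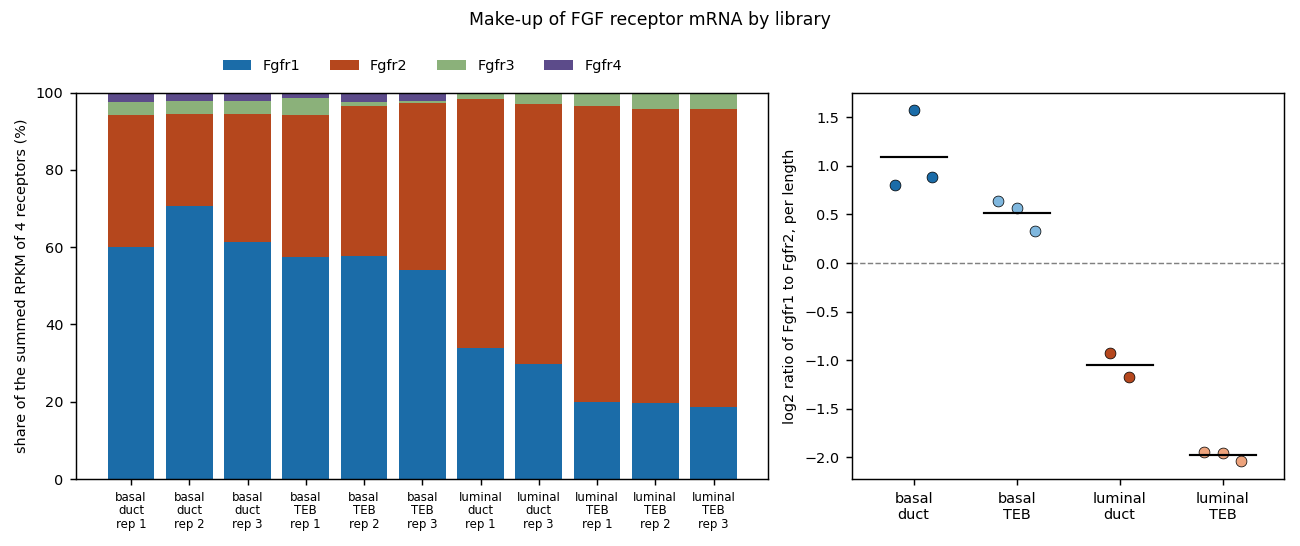
Left, share (%) of the summed RPKM of 4 FGF receptors taken by each receptor in the 11 libraries. Right, log2 ratio of Fgfr1 to Fgfr2 per length, with points for libraries and lines for group means, where ratios run from 2.98 in a basal duct library down to 0.242 in a luminal TEB library.

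Other receptor genes followed the basal side. Fgfr4, the remaining signaling receptor, was low but basal, at 13.8 to 14.2 CPM in basal ducts and 7.91 to 14.0 CPM in basal TEBs. It had 0 counts in both luminal duct libraries and 0 to 0.229 CPM in luminal TEBs. Taking 3 counts over the luminal duct group as the limit that a count of 0 allows, for counting error only, Fgfr4 was at least 318-fold higher in basal ducts (adjusted p = 0.000709). Fgfrl1, a receptor without a kinase domain, was 4.43-fold higher in basal cells of ducts (101 against 22.7 CPM, adjusted p = 3.94e-05) and 3.50-fold higher in TEBs (56.9 against 16.3 CPM, adjusted p = 2.95e-05). Of 4 further receptor genes listed, 3 were tested, and these 2 were the ones that passed, in both structures (for Fgfr4 in TEBs, adjusted p = 0.000827). Over all genes 22.3% passed in ducts and 25.1% in TEBs.

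Fgf1 (Entrez 14164, on chromosome 18), an FGF that can bind all of the signaling receptors, was far higher in basal cells. Basal ducts had 155, 154 and 182 CPM and basal TEBs had 138, 120 and 91.3 CPM, whereas the 5 luminal libraries had between 9.77 and 16.9 CPM. The excess was 14.0-fold in ducts (log2 3.81 ± 0.30, adjusted p = 5.27e-06) and 8.55-fold in TEBs (log2 3.10 ± 0.24, adjusted p = 2.51e-06). Each basal TEB library was below each basal duct library, by 1.41-fold on the fitted scale, but this did not pass (log2 -0.49 ± 0.22, adjusted p = 0.339). The gene's interval overlaps those of 2 other counted genes, Arhgap26 and Gm5820, and the library kit does not record strand, so reads from overlapping stretches would not be told apart.

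Among the FGF genes listed, Fgf1 had the highest level in each basal library. Of the 21 other FGF genes listed, not all of them receptor ligands, 9 were tested, and 1 passed in any of the 4 comparisons. This was Fgf13, whose product stays inside the cell and is not a receptor ligand. It stood at 10.2 to 12.6 CPM in luminal TEBs against 0 to 0.526 CPM in basal TEBs (adjusted p = 0.00443). In that comparison 25.1% of all genes passed. In ducts Fgf13 stood at 4.28 and 12.7 CPM in luminal and 0.368 to 1.69 CPM in basal cells (adjusted p = 0.0620). Fgf7 and Fgf10, ligands of the Fgfr2 isoform of epithelial cells that are made mainly by stroma, did not exceed 6.70 CPM in any library. Fgf10 was 6.70 CPM in basal TEB replicate 1 and 3.66 CPM in basal duct replicate 2, and at most 0.343 CPM in each other library. Fgf7 was highest in basal duct replicate 2, at 6.60 CPM, the library that also had the highest sums of fibroblast, endothelial and immune markers (902, 175 and 81.3 CPM), and the part of such cells in it was not tested. Fgf8, Fgf11, Fgf12 and Fgf17 reached a group mean of at least 1 CPM in a group, with no group mean above 2.48 CPM. For Fgf8 this group was luminal duct, and it came from replicate 3 alone (3.78 CPM, against 0 in replicate 1).

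The feedback inhibitors were higher in basal cells as a group. Spry1 (Entrez 24063, chr3:37639947-37644599) was 66.6, 66.7 and 88.0 CPM in basal ducts and 71.9, 80.6 and 52.5 CPM in basal TEBs, against 11.8 and 18.4 CPM in luminal ducts and 14.6, 13.5 and 13.5 CPM in luminal TEBs. The basal excess was 4.89-fold in ducts (log2 2.29 ± 0.28, adjusted p = 0.000113) and 4.92-fold in TEBs (log2 2.30 ± 0.24, adjusted p = 2.42e-05). TEB and duct libraries overlapped in both lineages, and of the 10 genes Spry1 had the most similar fold in the 2 structures.

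Spry2 (Entrez 24064, chr14:105891947-105896819) was 80.2, 82.5 and 91.4 CPM in basal ducts and spread more widely in basal TEBs, from 52.9 CPM in replicate 1 to 125 CPM in replicate 2 and 109 CPM in replicate 3. Luminal cells had 34.4 and 24.3 CPM in ducts and 16.5, 25.2 and 17.4 CPM in TEBs. The basal excess was 2.88-fold in ducts (log2 1.53 ± 0.35, adjusted p = 0.00753) and 4.86-fold in TEBs (log2 2.28 ± 0.31, adjusted p = 0.000171). The call in ducts was lost without luminal duct replicate 3 (adjusted p = 0.0693) and with scaling by library size alone (adjusted p = 0.0520).

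Spry4 (Entrez 24066, on chromosome 18) was the inhibitor with the largest difference between TEBs and ducts in basal cells. Basal TEBs had 51.7, 58.2 and 51.8 CPM, all above the 32.2, 31.7 and 28.6 CPM of basal ducts, and the 1.75-fold difference did not pass across all genes (log2 0.81 ± 0.26, adjusted p = 0.188). Luminal cells had 10.7 and 20.8 CPM in ducts and 10.8, 10.4 and 8.55 CPM in TEBs, with a log2 difference of -0.67 ± 0.29 (adjusted p = 0.276). The basal excess was thus 5.45-fold in TEBs (log2 2.45 ± 0.27, adjusted p = 3.90e-05) and 1.96-fold in ducts (log2 0.97 ± 0.30, adjusted p = 0.0361). The call in ducts was lost when any 1 of 9 libraries was left out, all but basal TEB replicate 1 and luminal duct replicate 3, with adjusted p from 0.0517 to 0.183, and the log2 difference was 0.57 without luminal duct replicate 1. Fitting the ducts alone gave an adjusted p of 0.122, and scaling by library size alone gave 0.0641.

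Dusp6 (Entrez 67603, chr10:99263231-99267489) was the most abundant of the 10 genes per length in basal cells, with a mean of 266 RPKM in ducts and 268 RPKM in TEBs. In CPM it was 694, 791 and 748 in basal ducts and 569.9, 921 and 754 in basal TEBs. Luminal ducts had 233 and 241 CPM, and luminal TEBs had 117, 151 and 112 CPM, each below both duct libraries. The basal excess was 3.14-fold in ducts (log2 1.65 ± 0.24, adjusted p = 0.000363) and 5.91-fold in TEBs (log2 2.56 ± 0.21, adjusted p = 4.10e-06). Within luminal cells the TEB level was 1.87-fold lower than the duct level, short of the threshold (log2 -0.90 ± 0.22, adjusted p = 0.0726). With all libraries kept it passed by the likelihood ratio test (adjusted p = 0.0105), DESeq2 (0.00130) and limma voom (0.0466) and in a fit of luminal libraries alone (0.0437), and it also passed without basal TEB replicate 1 or 2 (0.0428 and 0.0492), libraries that enter this difference through the shared estimate of spread. In basal cells the log2 difference was 0.01, with a 95% interval from -0.43 to 0.45.

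The ETS factors stood beside Fgf1 as the genes with the largest basal excess. Etv4 (Entrez 18612, chr11:101769747-101785310) was 149, 99.8 and 190 CPM in basal ducts and a tight 317, 335 and 312 CPM in basal TEBs, while luminal ducts had 6.44 and 16.8 CPM and luminal TEBs 18.4, 26.4 and 23.0 CPM. The basal excess was 12.7-fold in ducts (log2 3.67 ± 0.42, adjusted p = 6.14e-05) and 14.2-fold in TEBs (log2 3.83 ± 0.35, adjusted p = 8.39e-06). The luminal duct pair differed, and the log2 value in ducts was 3.13 without its replicate 1 and 4.50 without its replicate 3, both past the threshold. In both lineages each TEB library was above each duct library. The difference was 2.19-fold in basal cells (log2 1.13 ± 0.32, adjusted p = 0.124) and 1.96-fold in luminal cells (log2 0.97 ± 0.37, adjusted p = 0.214), and neither passed. The basal difference passed without either luminal duct library (adjusted p = 0.0326 and 0.0317), and the luminal difference passed without luminal duct replicate 3, where it was 1.81 (adjusted p = 0.0463).

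Etv5 (Entrez 104156, chr16:22381313-22439570) was 222, 151 and 308 CPM in basal ducts and 278, 495 and 379 CPM in basal TEBs. Luminal cells had 22.5 and 16.8 CPM in ducts and 22.0, 25.2 and 17.4 CPM in TEBs. The basal excess was 11.5-fold in ducts (log2 3.53 ± 0.37, adjusted p = 3.24e-05) and 17.8-fold in TEBs (log2 4.16 ± 0.32, adjusted p = 2.19e-06), the latter being the largest of the 10 genes. The TEB value in basal cells was 1.69-fold higher, with overlapping libraries (log2 0.76 ± 0.28, adjusted p = 0.248).

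**Figure D3:**
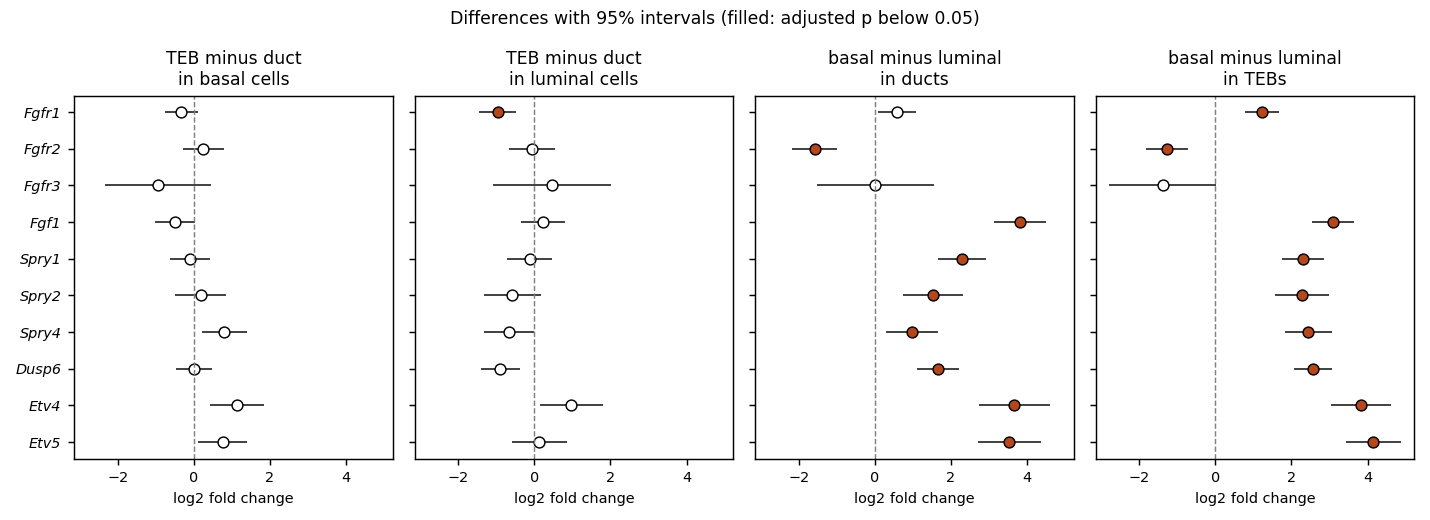
Log2 fold change of each of the 10 genes in 4 comparisons, with 95% intervals from edgeR's quasi-likelihood fit. Filled points passed an adjusted p of 0.05, which 0, 1, 8 and 9 genes did from left to right, and Fgfr2 is the only filled point left of 0 in both comparisons of basal with luminal cells.

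For TEB against duct in basal cells, edgeR's quasi-likelihood test called 0 of the 10 genes, where 1.32% of all genes passed. At an unadjusted p under 0.05 there were 4 (Fgf1, Spry4, Etv4 and Etv5), against 14.5% of all genes, and the likelihood ratio test, DESeq2 and limma voom called 1, 1 and 2 (Etv4 in each, with Spry4 in the last). Groups did not overlap for 4 genes, Fgfr1 and Fgf1 lower and Spry4 and Etv4 higher in TEBs, where 20.8% of all genes did not overlap. In the same comparison 3 of the 6 basal markers (Krt5, Krt14 and Oxtr) passed as lower in TEBs. The part of this in the differences of the 10 genes was not tested. In luminal cells groups did not overlap for 3 genes, Fgfr1 and Dusp6 lower and Etv4 higher in TEBs, against 43.7% of all genes, a share that the 2 luminal duct libraries make large. The difference between the TEB change in basal cells and that in luminal cells was tested in the same fit and called 0 of 10 genes, where 0.443% of all genes passed. At an unadjusted p under 0.05, which 14.7% of all genes had, there were 3 genes, Spry4 (log2 1.47 ± 0.39, adjusted p = 0.134), Dusp6 (0.91 ± 0.30, adjusted p = 0.205) and Fgfr1 (0.64 ± 0.28, adjusted p = 0.322). The likelihood ratio test called 1 (Spry4), DESeq2 called 2 (Spry4 and Dusp6) and limma voom called 0, and Spry4 passed without luminal duct replicate 1 (1.88, adjusted p = 0.0119).

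Per length, the order of the 10 genes differed between lineages. Mean RPKM in basal TEBs ran from Dusp6 (268 ± 62.8, SD, n = 3) and Etv4 (138 ± 5.22) through Etv5 (100.4 ± 28.4) and Fgfr1 (98.7 ± 4.13) to Spry4 (11.7 ± 0.806) and Fgfr3 (3.34 ± 3.42). The neighbours Etv5 and Fgfr1 lay within each other's spread, and changed places when the length of the longest transcript was used. In luminal TEBs Fgfr2 led (167 ± 17.5), followed by Dusp6 (45.3 ± 7.65) and Fgfr1 (42.2 ± 3.22), again within their spread, and the remaining 7 genes had means from 9.66 RPKM for Etv4 down to 2.16 RPKM for Spry4. Fgfr2 and Dusp6 thus exchanged places as the most abundant transcript of the set, in ducts (174 ± 71.1 and 84.7 ± 2.20 RPKM in luminal, n = 2, 58.5 ± 10.1 and 266 ± 17.5 RPKM in basal cells) as in TEBs.

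Promoter sequence is shown for 4 of the genes that were higher in basal cells of both structures, since Etv4 and Etv5 belong to a family that binds the core GGAA. RefSeq promoters (GRCm38.p6) were at hand for 6 of the 10 genes. The 250 bases before the start site were searched for GGAA on either strand (read as TTCC on the other) and for the longer CGGAA, which contains the core. Windows are printed 5′ to 3′ on the strand of the gene, with the core in capitals, at chr10:99262981-99263230 (plus) for Dusp6, chr14:105896820-105897069 (minus) for Spry2, chr3:37639697-37639946 (plus) for Spry1 and chr16:22439571-22439820 (minus) for the upstream start of Etv5.
Dusp6: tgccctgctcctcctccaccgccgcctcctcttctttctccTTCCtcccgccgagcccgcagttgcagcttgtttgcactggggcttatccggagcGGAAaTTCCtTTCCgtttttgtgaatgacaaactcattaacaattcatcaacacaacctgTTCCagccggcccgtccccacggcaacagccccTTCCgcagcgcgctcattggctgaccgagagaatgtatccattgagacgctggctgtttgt
Spry2: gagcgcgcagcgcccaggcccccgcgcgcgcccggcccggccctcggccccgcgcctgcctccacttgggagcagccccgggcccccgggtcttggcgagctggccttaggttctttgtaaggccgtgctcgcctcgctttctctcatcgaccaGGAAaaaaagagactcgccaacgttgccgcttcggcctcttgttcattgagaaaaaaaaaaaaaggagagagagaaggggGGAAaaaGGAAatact
Spry1: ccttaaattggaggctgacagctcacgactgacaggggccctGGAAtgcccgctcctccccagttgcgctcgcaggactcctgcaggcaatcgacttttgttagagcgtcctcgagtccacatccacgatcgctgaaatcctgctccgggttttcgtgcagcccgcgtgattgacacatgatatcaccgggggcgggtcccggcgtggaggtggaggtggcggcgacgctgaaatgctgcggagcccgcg
Etv5: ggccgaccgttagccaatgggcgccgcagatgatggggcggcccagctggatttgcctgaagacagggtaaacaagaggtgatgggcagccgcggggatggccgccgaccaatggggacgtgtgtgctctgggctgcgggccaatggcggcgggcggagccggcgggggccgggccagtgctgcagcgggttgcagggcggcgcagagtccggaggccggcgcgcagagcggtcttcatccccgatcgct
The Dusp6 window held 6 cores and 3 matches of the longer form. Spry2 held 3 cores, Spry1 held 1 and the upstream Etv5 window held 0, whereas a second Etv5 start, downstream of it at chr16:22438369-22438618 (not printed), held 4. None of these 4 windows held the longer form. Of the genes not higher in basal cells, Fgfr2 had a window with 2 cores and Fgfr3 had windows with 1 and 5 cores (not printed). None of those held the longer form either. Over all 32851 promoters of the table, 93.4% held the core, with a median of 3, and 25.2% held the longer form, 2.12% at least 3 of them. These are matches of letters only, and binding was not measured here.

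The rest of the pathway was described with 63 other genes, of which 49 were tested. Among 18 genes of the relay from receptor to ERK, 5 passed in ducts and 8 in TEBs, of which 3 and 6 were lower in basal cells. Over all genes 22.3% passed in ducts and 25.1% in TEBs, so the share of the relay in ducts was near that of all genes. Mapk3, which encodes an ERK kinase, was lower in basal TEBs than in luminal TEBs by 3.17-fold (45.3 against 144 CPM, adjusted p = 3.39e-05). Shc1, which encodes an adaptor, was lower in basal cells of both structures (1.64-fold in ducts, adjusted p = 0.0184, and 1.66-fold in TEBs, adjusted p = 0.00848). Grb2 and Map2k1 were lower in basal TEBs (1.80-fold and 1.61-fold). Hras was higher in basal cells (2.02-fold in ducts, 2.52-fold in TEBs), as was Plcg1, a phospholipase that binds activated FGF receptors, at 166 against 36.2 CPM in ducts (4.60-fold, adjusted p = 1.77e-05) and 187 against 29.9 CPM in TEBs (6.25-fold, adjusted p = 1.04e-06). The median log2 fold change of the relay, basal over luminal, was -0.24 in ducts against 0.08 for all genes and -0.34 in TEBs against 0.04. Of 2 listed carriers of ligands, both tested, none passed.

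Among 12 tested genes of feedback and of FGF co-factors, 4 were higher and 1 lower in basal cells of ducts, and 6 were higher and 1 lower in TEBs, where over all genes 12.6% were higher and 9.71% lower in ducts and 13.2% and 11.8% in TEBs. Il17rd, also known as Sef, an inhibitor of FGF signaling, was 21.5, 25.3 and 42.0 CPM in basal ducts against 2.16 and 0 CPM in luminal ducts (adjusted p = 0.00408; no fold is given, since 1 library had no counts) and was 8.25-fold higher in basal TEBs (72.5 against 8.78 CPM, adjusted p = 0.00926). Spred1, an inhibitor related to the Sprouty family, was 3.97-fold and 2.43-fold higher, and the phosphatase gene Dusp7 1.87-fold and 2.30-fold. Flrt3 was higher in basal TEBs (8.81-fold, adjusted p = 0.000996). Flrt2 had 0 counts in both luminal duct libraries, against 4.95 CPM in basal ducts, and was at least 113-fold higher there by the same limit of 3 counts (adjusted p = 0.00274). In TEBs Flrt2 stood at 11.5 against 0.103 CPM (adjusted p = 0.00184) and Flrt1 at 1.88 against 0.0127 CPM (adjusted p = 0.0371). The exception among the genes that passed was Dusp4, a nuclear phosphatase of ERK. Dusp4 was lower in basal cells by 3.73-fold in ducts (25.9 against 96.7 CPM, adjusted p = 0.0191) and by 4.66-fold in TEBs (33.7 against 158 CPM, adjusted p = 0.00487). Genes of this list that did not pass went both ways. One of them, Spred3, was lower in basal cells without overlap. It had 3.01 to 8.66 against 29.7 to 56.0 CPM in ducts and 0 to 9.01 against 15.8 to 17.6 CPM in TEBs.

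**Figure D4:**
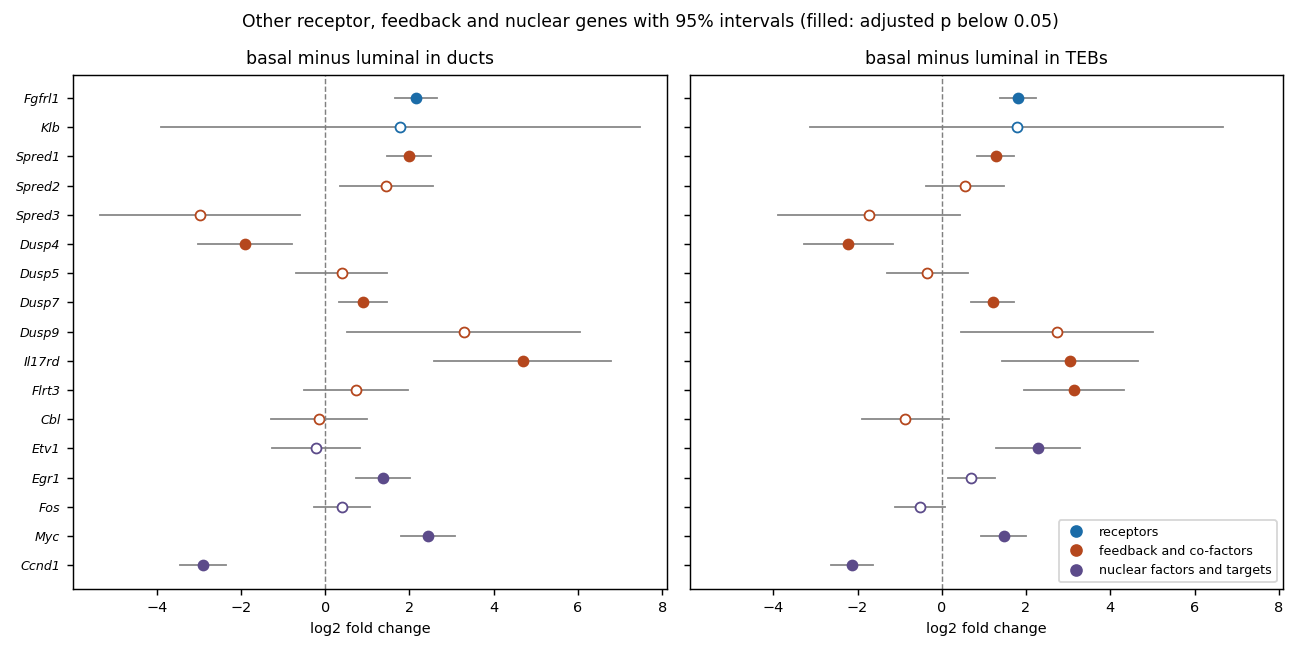
Log2 fold change, basal over luminal, of 17 other receptor, feedback and nuclear genes, with 95% intervals, by role. Each gene had at least 10 counts in each group, summed over the libraries of the group. Filled points passed an adjusted p of 0.05, with Il17rd far to the right and Ccnd1 and Dusp4 to the left of 0 in both panels. In ducts the size of the Il17rd difference rests on 1 luminal library, since the other had no counts.

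Among 5 further nuclear genes, Myc was higher in basal cells (5.41-fold in ducts, adjusted p = 0.000104, and 2.77-fold in TEBs, adjusted p = 0.000803). Egr1 was higher in basal ducts (2.59-fold, adjusted p = 0.00536), and Etv1, the third member of the Etv4 and Etv5 subfamily, in basal TEBs (4.87-fold, adjusted p = 0.00270). Ccnd1, which encodes cyclin D1, was lower in basal cells, 7.50-fold in ducts (62.4 against 468 CPM) and 4.40-fold in TEBs (207 against 911 CPM). Between TEBs and ducts, 3 of the 49 genes passed, all in basal cells, where 1.32% of all genes passed (1.41% in luminal cells). Ccnd1 was 3.32-fold higher in basal TEBs (264, 169 and 189 CPM against 46.5, 62.9 and 77.8 CPM, adjusted p = 0.00374), Fos was 2.87-fold lower (adjusted p = 0.0239) and Mapk3 was 1.90-fold lower (40.2, 53.7 and 42.0 CPM against 95.6, 82.4 and 81.0 CPM, adjusted p = 0.0299).

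To see which transcripts shared these patterns, the log2 CPM of each gene was centred on its mean over the 11 libraries and compared with that of 7862 genes whose mean log2 CPM reached 4, by root mean square (RMS) difference. Spry2 and Dusp6 were each the third nearest gene of the other (RMS 0.266), and Eid1 was the second nearest of both (0.238 and 0.237). Nearest to Fgfr1 were Slc39a13, Usp28 and Dmwd (0.161 to 0.219) and nearest to Fgfr2 were Dnmbp, Ccdc25 and Lmnb2 (0.166 to 0.196). The profile of Fgf1 was nearest to Fzd7, Ajuba and Ext1 (0.275 to 0.354), and that of Spry1 to Agrn, Nxn and Nhsl1 (0.184 to 0.225). Spry4 was nearest to Pcbp4, Atp2b1 and Zdhhc9 (0.218 to 0.267). Dusp6 had Map2 as its first neighbour (0.218), and Spry2 had Zdhhc17 (0.235). Etv5 was nearest to Slc7a5, Lgr6 and Epha4 (0.304 to 0.351), and Etv4 had looser matches with Eogt, Mical1 and Lamc1 (0.383 to 0.51). Fgfr3 had no near match, its first being Ace at 0.557, followed by Trex1 and Syne2.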

How the data were processed

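Per the study's methods, the authors made TruSeq RNA v2 libraries (polyA RNA per the labels), aligned 80 bp paired-end reads to mm10 and counted them by Entrez gene with Rsubread and its inbuilt RefSeq annotation, and the submitters' processing notes name featureCounts. The deposited table gives these raw counts, with each gene's exon length in another deposited column. The TruSeq RNA v2 kit does not mark strand. The authors had dropped 1 luminal duct sample because it held few cells. Symbols, positions and promoters are from RefSeq (GRCm38.p6).

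Genes with low counts were removed by filterByExpr (at least 10 in enough libraries and 15 in all), counts were scaled by TMM in edgeR 4.0.16 (R 4.3.3), and 1 quasi-likelihood model over the 4 groups gave each comparison, with Benjamini-Hochberg adjustment over 17370 genes and a threshold of 0.05. Standard errors were derived from each fold change and its F statistic. RPKM is TMM-scaled CPM per kilobase of counted exon. Nothing states that the 2 or 3 pools of a group were independent in time, so p-values measure the spread between these samples. Depth was 27989137 to 49221436 counts a library, and limits for counts of 0 cover counting error only.

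The 10 genes and all gene lists were chosen with earlier results of these data known. Named are the 10 genes, other pathway genes that passed, other FGF genes with a group mean of at least 1 CPM, and for each of the 10 the 3 genes nearest in profile. Spred3, which did not pass, was added after seeing the data. Some pathway genes that passed are not reported here by name. Alternatives were RLE size factors, library size alone, no filter, a mean CPM of at least 1, the likelihood ratio test, DESeq2 1.42.0, limma voom (limma 3.58.1), the compared groups only, the replicate number as a block, removal of mitochondrial genes, each library left out in turn, and the length of the longest GENCODE transcript. Leaving out both libraries with the highest mitochondrial share was added after seeing the data. Simulated counts with planted changes were used to test the scripts.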

Additional observations from a re-analysis of the deposited data

How the results depend on the processing

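Fgfr2, Fgf1, Spry1, Dusp6, Etv4 and Etv5 passed in ducts and these genes with Spry2 and Spry4 passed in TEBs, basal against luminal, under each of the 22 alternatives. Of the 10 genes, 0 passed for TEB against duct in basal cells in the reported fit, 1 by the likelihood ratio test, 1 by DESeq2 and 2 by limma voom. In luminal cells 1 passed in the reported fit, 0 with library size alone, 2 by the likelihood ratio test, 2 by DESeq2 and 2 by limma voom. For the difference between lineages 0 passed in the reported fit, 1 by the likelihood ratio test and 2 by DESeq2. With both libraries of the highest mitochondrial share left out (chosen after seeing the data), 1 passed in basal cells and 1 for the difference between lineages, in each case Fgfr3. Leaving out 1 library gave 0 to 1 genes in basal cells, 0 to 2 in luminal cells and 0 to 1 for the difference between lineages, with a lone luminal duct library assumed to vary like the other groups. The cause of these changes was not tested.

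Whether replicate numbers pair the libraries is not stated and was not settled here, and the reported fit left them unpaired. Deviations from group means correlated at -0.068 to 0.163 in 15 same-numbered pairs, 4 of them over 0.1. In 30 other pairs they correlated at -0.163 to 0.137, 2 of them over 0.1. The 2 luminal duct libraries deviate from their mean equally in opposite directions, so each of their correlations appears with both signs. Both of the other pairs over 0.1 held luminal duct replicate 3 (0.137 and 0.103). Among pairs without a luminal duct library, same-numbered pairs ran from -0.004 to 0.115 and other pairs from -0.152 to 0.06. With the replicate number as a block, 0, 0, 7, 9 and 0 of the 10 genes passed in basal TEB against duct, luminal TEB against duct, ducts, TEBs and the difference between lineages, the calls lost being Fgfr1 in luminal cells and Spry4 in ducts, and the count over all genes in luminal cells went from 245 to 125. Under the block the log2 change in TEBs was -0.015 for Dusp6 in basal cells and 0.023 for Fgfr2 in luminal cells.

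Directions turned only for differences that did not pass. For TEB against duct in basal cells, Dusp6 was -0.033 with RLE size factors and with DESeq2, -0.07 with library size alone, and -0.022 both with a mean CPM of at least 1 and with mitochondrial genes removed. In luminal cells, Fgfr2 and Spry1 were 0.372 and 0.298 with library size alone and 0.033 and 0.014 with limma voom, and without both high mitochondrial libraries Fgfr2, Spry1 and Etv5 were 0.446, 0.251 and -0.049. Fgfr3 in ducts was -0.023 with RLE size factors and -0.025 with DESeq2. The difference between lineages turned for Fgfr2, Spry1 and Etv4, to -0.261, -0.547 and -0.444 with library size alone and to -0.111, -0.39 and -0.675 without both high mitochondrial libraries, and for Spry1 and Etv4 to -0.129 and -0.175 with limma voom, and for Spry1 to -0.012 with mitochondrial genes removed. Leaving out 1 library at a time, the ranges that crossed 0 were -0.299 to 0.049 for Spry1, -0.108 to 0.476 for Spry2 and -0.216 to 0.179 for Dusp6 in basal cells, -0.425 to 0.429 for Fgfr2, -0.161 to 1.56 for Fgfr3, -0.407 to 0.234 for Spry1 and -0.066 to 0.362 for Etv5 in luminal cells, -0.612 to 1.109 for Fgfr3 in ducts, and -0.183 to 0.671 for Fgfr2, -0.343 to 0.298 for Spry1 and -0.675 to 0.704 for Etv4 in the difference between lineages. With the length of the longest transcript, the mean log2 ratio of Fgfr1 to Fgfr2 was 0.233 in basal TEBs, -1.331 in luminal ducts and -2.263 in luminal TEBs. A change of length shifts this ratio by the same amount in every library, so it cannot alter the order of groups.

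Over all genes, in basal and luminal cells, TEB against duct gave 230 and 245 genes in the reported fit, 57 and 10 with library size alone, 707 and 1006 by the likelihood ratio test, 874 and 1277 by DESeq2, and 601 by limma voom in basal cells. Fitting luminal libraries alone gave 603. The difference between lineages gave 77 in the reported fit, 15 with library size alone, 141 with no filter, 629 by the likelihood ratio test, 712 by DESeq2, 198 without both high mitochondrial libraries and 46 with the block, and without those libraries luminal cells gave 372. Leaving out 1 library gave 59 to 399 genes in basal cells, 37 to 1305 in luminal cells and 7 to 753 for the difference between lineages. With 2 luminal duct libraries, differences within luminal cells rest on few values.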
